A study of Mus musculus with 2 samples.

Results

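The genes described here are 8 of the 19394 genes counted in sorted mouse renal progenitors: the transcriptional co-activators Yap1 and Wwtr1 (which encodes Taz), their DNA-binding partner Tead1, and the target genes Ctgf, Cyr61, Ankrd1, Amotl2 and Axl. The rule is a list of gene names with no threshold on values, drawn up with earlier results of these data known, and all 8 had a row in the matrix. The cells were given panobinostat, an inhibitor of histone deacetylases, at 0.2 µM, or DMSO vehicle, for 48 h. Both groups came from kidney cortex of 9-week-old C57Bl/6 mice carrying Pax2.rtTA, TetO.Cre and the reporter R26.mT/mG, an allele set that lets doxycycline switch on Cre under Pax2 control and marks that lineage with GFP. The labels give 2 mice, without saying how they were divided over the treatments. Glomeruli were cultured in 20% fetal bovine serum, and GFP-positive outgrowths were sorted after 5 days and plated at 80000 cells per well. Both groups were starved for 16 h and then treated in 10% fetal bovine serum, and 1 library of single cells was made per treatment. The title names the way panobinostat acts on these cells as the study's question. With 1 library per treatment there is no spread between samples and no test of treatment, and the intervals given take in nothing but counting error.

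The Hippo pathway is a kinase cascade that senses cell density, shape and tension. Its kinases Stk3, Stk4, Lats1 and Lats2 phosphorylate the Yap and Taz proteins, which then stay out of the nucleus. Unphosphorylated Yap and Taz enter the nucleus, bind Tead factors and switch on genes such as Ctgf and Cyr61. In the kidney Yap and Taz act during nephron formation, and Yap is needed for the upkeep of podocytes. Transcript counts tell the level of these RNAs and not where the proteins are.

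Tead factors bind the bases GGAATG, and the stretch around each such match before a member's start is shown because Tead binding is the step by which Yap and Taz reach their targets. RefSeq start sites on GRCm38.p6 were at hand for 6 of the 8 members, and the 250 bases before the start were searched on both strands for GGAATG. All 6 held at least 1 match, against 14.4% of 27025 genes, and Ankrd1 held 2. Capitals mark the match, which reads CATTCC where it lies on the opposite strand, and each line runs 5′ to 3′ along the gene's own strand.
Yap1, chr9:8004720-8004749, minus strand: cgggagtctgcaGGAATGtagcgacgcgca
Wwtr1, chr3:57576029-57576058, minus strand: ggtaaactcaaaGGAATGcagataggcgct
Cyr61, chr3:145650071-145650100, minus strand: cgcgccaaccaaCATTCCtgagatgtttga
Ankrd1, chr19:36120037-36120066, minus strand: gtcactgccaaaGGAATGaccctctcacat
Ankrd1, chr19:36119950-36119979, minus strand: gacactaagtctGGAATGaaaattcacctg
Amotl2, chr9:102717727-102717756, plus strand: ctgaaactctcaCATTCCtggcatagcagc
Axl, chr7:25788949-25788978, minus strand: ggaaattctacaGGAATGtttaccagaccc
The match of Amotl2 lay nearest to its RefSeq start, 65 bases before it, and that of Axl farthest, 233 bases before it. The RefSeq starts of Amotl2 and Ankrd1 lie inside the GENCODE gene spans given below, and so do their matches. Those of Yap1 and Cyr61 began 141 and 103 bases before the start. The match in Wwtr1 lies before both of its listed starts, at 136 and 170 bases. No window of the 6 held the AP-1 motif TGANTCA or the CArG box bound by Srf, which are present in 7.82% and 1.62% of all genes. Of 14 further Yap and Taz target genes with a start in the table, 3 held GGAATG, and of 14 contractile genes 5 did. Among binding partners and regulators 8 of 15 held it, among kinases and upstream regulators 4 of 16, and in the TGF-beta list 0 of 7. A match describes the letters and does not show that a factor binds there.

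The whole 250-base window of Cyr61 is given because this gene had the largest upward ratio among the members. It covers chr3:145649986-145650235 on the minus strand, and capitals again mark the match.
Cyr61 upstream window: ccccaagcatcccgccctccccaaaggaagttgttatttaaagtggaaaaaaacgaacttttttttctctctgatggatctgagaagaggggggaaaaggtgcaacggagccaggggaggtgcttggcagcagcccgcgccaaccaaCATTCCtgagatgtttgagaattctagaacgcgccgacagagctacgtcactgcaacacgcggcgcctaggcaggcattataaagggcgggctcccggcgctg

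The panobinostat library held 2281 cells and 104188927 UMIs (distinct molecules), with a median of 42394 UMIs per cell, against 2854 cells, 90754967 UMIs and a median of 27924 in the vehicle library. Cells called S or G2/M from their transcripts numbered 3 with panobinostat and 1838 with vehicle. Of 9 markers of parietal epithelial and renal progenitor cells, all were seen in both libraries, at 7168 CPM in sum with panobinostat and 10174 CPM with vehicle, where CPM is UMIs scaled to a library total of 1000000. Only Akap12 among them was higher with panobinostat (2288 and 1280 CPM). The 6 mesangial, muscle and fibroblast markers summed to 85.8 CPM with panobinostat and 1463 CPM with vehicle, mostly Tagln (59.5 and 792.0 CPM) and Acta2 (12.0 and 638.5 CPM). Cnn1 was lower too (11.0 and 31.7 CPM). Pdgfra (1.78 and 0.353 CPM), Dcn (1.20 and 0.0441 CPM) and Pdgfrb (0.365 and 0.0992 CPM) were higher with panobinostat. The 4 leukocyte markers summed to 96.8 and 5.18 CPM, with the pan-leukocyte gene Ptprc at 1.98 and 0.606 CPM. Podocyte, proximal tubule, distal tubule and endothelial markers each summed to at most 24.4 CPM, and the podocyte marker Wt1 and the tubule marker Umod had 0 UMIs with vehicle. Whether these differences play a part in the results below was not tested.

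Of the 8 genes only Yap1 differed by 2-fold or more, and it was lower with panobinostat. All 8 reached 10 CPM in at least 1 library, the level asked of a gene before it was called. Over all 8872 genes that reached this level, 20.8% were called, 9.85% as higher and 11.0% as lower, so 1 of 8 is close to that background. The median log2 ratio of the 8 was 0.09, against -0.07 over all genes. The 5 targets lay between -0.21 and 0.82 on the log2 scale.

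**Figure D1:**
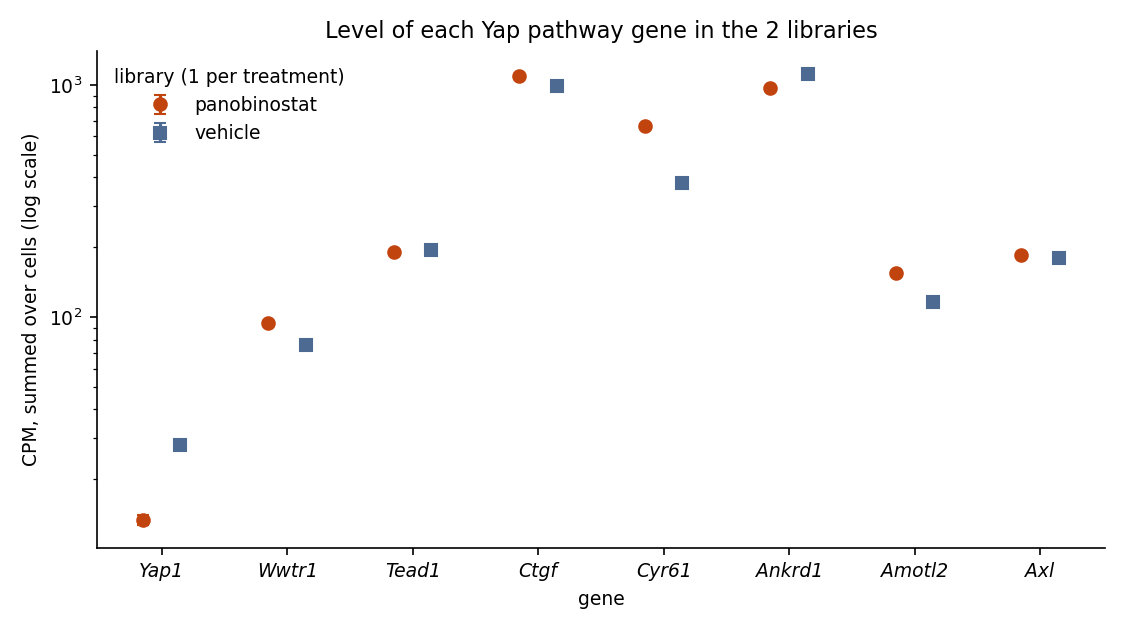
Level of each gene in CPM (UMIs per 1000000 of the library, all cells added up, log axis) with panobinostat (circles) and vehicle (squares). Error bars are 95% Poisson intervals, mostly smaller than the symbols. Yap1 stands at 13.4 CPM with panobinostat and 28.1 CPM with vehicle, while Ctgf, Ankrd1, Tead1 and Axl stand close together in both libraries.

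Yap1, the co-activator that gives the pathway its name, lies on chromosome 9 from 7931999 to 8004596 (GRCm38, minus strand). It had 1392 UMIs with panobinostat and 2551 with vehicle, or 13.4 CPM (95% Poisson interval 12.7 to 14.1) and 28.1 CPM (27.0 to 29.2). The log2 ratio was -1.07 (95% interval -1.17 to -0.98), a level 2.10-fold lower with panobinostat, and 9.69% of all genes past 10 CPM had a smaller ratio. The intervals of the levels do not overlap, and the value lies just past the 2-fold line. CPM is a share of a library's UMIs and not an amount per cell. Panobinostat cells had the higher median UMI total (42394 against 27924), and whether RNA content or sequencing depth gave that difference was not tested. Cells were thinned at random to 18663 UMIs each so that shares are not set by depth, which left 2221 panobinostat and 2401 vehicle cells. The 60 panobinostat and 453 vehicle cells below that depth are missing from all thinned values, so more of the vehicle library was left out. At least 1 UMI of Yap1 was then seen in 21.2% of panobinostat cells (exact binomial interval 19.5 to 22.9) and 39.7% of vehicle cells (37.7 to 41.6), against 42.8% and 55.1% without thinning. The thinned cells held 0.246 and 0.519 UMIs of Yap1 on average, so a cell with none may still express the gene. No cell type among these sorted cells is known to lack the 8 genes, so the share given by free RNA could not be measured.

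Wwtr1, on chromosome 3 from 57455649 to 57575910 (minus strand), encodes Taz, which binds the same Tead factors as Yap. It stood at 94.7 CPM with panobinostat and 75.5 CPM with vehicle, from 9865 and 6855 UMIs. The log2 ratio of 0.33 (0.28 to 0.37) is opposite in sign to that of Yap1 and under 2-fold. In thinned cells 78.2% of panobinostat cells (76.4 to 79.9) and 70.4% of vehicle cells (68.5 to 72.2) held a UMI of Wwtr1, against 95.1% and 82.3% without thinning. There were 7.09 Wwtr1 UMIs for each Yap1 UMI with panobinostat and 2.69 with vehicle. These are counts of 3′ ends, and since capture can differ between genes they compare the libraries and not the amounts of the 2 transcripts.

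Cells that held UMIs of both co-activators made up 15.8% of thinned panobinostat cells (14.3 to 17.4) and 28.2% of vehicle cells (26.4 to 30.1). Cells with Wwtr1 alone made up 62.4% (60.3 to 64.4) and 42.1% (40.2 to 44.2). Those with neither made up 16.5% and 18.2%, whose intervals overlap. At this depth, then, the share with Wwtr1 alone was larger with panobinostat, and the share with no UMI of either gene did not differ beyond counting error. These shares depend on how often each gene was seen on its own. Whether cells held Wwtr1 in place of Yap1 was not tested.

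Tead1, which encodes the DNA-binding partner, lies on chromosome 7 from 112679318 to 112906807 (plus strand). It stood at 190.1 CPM with panobinostat and 194.3 CPM with vehicle, a log2 ratio of -0.03 (-0.06 to -0.0018) whose sign turned when ratios were centred on the median gene (0.04). A UMI of it was seen in 94.5% and 95.0% of thinned cells, with overlapping intervals, and in 98.3% and 95.5% unthinned. Its relative Tead2, in the list of binding partners and regulators, was called lower, at 23.5 CPM with panobinostat and 60.5 CPM with vehicle (log2 ratio -1.37, interval -1.43 to -1.30). Tead4 stood at 8.85 and 13.0 CPM, and Tead3 stayed under 10 CPM in both libraries, at 4.87 and 3.70 CPM. Tead3 could thus not be called, and Tead4 passed 10 CPM through the vehicle library alone. Among the Tead genes past that level only Tead2 was called, where 20.8% of all genes were.

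Ctgf and Cyr61 encode secreted matricellular proteins of the CCN family and are the targets most often used to read Yap activity. Ctgf, on chromosome 10 from 24595442 to 24598683 (plus strand), stood at 1093 CPM with panobinostat (1087 to 1100) and 989.2 CPM with vehicle (982.7 to 995.7). Its log2 ratio of 0.14 (0.13 to 0.16) was 0.02 with DESeq2 size factors, and both libraries stood close together. In thinned cells the 10th percentile, the median and the 90th percentile were 8, 20 and 34 UMIs with panobinostat and 5, 17 and 35 UMIs with vehicle.

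Cyr61, on chromosome 3 from 145646976 to 145649981 (minus strand), stood at 666.1 CPM with panobinostat (661.1 to 671.1) and 376.7 CPM with vehicle (372.7 to 380.7). It was 1.77-fold higher (log2 ratio 0.82, 0.80 to 0.84), under the 2-fold line, with 87.0% of all genes below it. The thinned cells held 4, 12 and 23 UMIs at the 10th percentile, the median and the 90th percentile with panobinostat, and 1, 6 and 15 UMIs with vehicle. The low, middle and high cells were thus all above those of the vehicle library, and the share of thinned cells with a UMI was 98.4% (97.8 to 98.9) and 90.7% (89.4 to 91.8), against 98.8% and 90.5% unthinned. Among the other CCN genes, Wisp1 was called lower, at 7.61 and 18.6 CPM (log2 ratio -1.29, -1.41 to -1.17). Nov, which stayed under 10 CPM in both libraries and is named after its values were seen, had 188 UMIs with panobinostat and 2 with vehicle (log2 ratio 6.36, 4.48 to 9.41).

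Ankrd1, on chromosome 19 from 36111961 to 36120099 (minus strand), encodes an ankyrin repeat protein best known from stretched muscle. It stood at 967.6 CPM with panobinostat (961.7 to 973.6) and 1116 CPM with vehicle (1109 to 1123), a log2 ratio of -0.21 (-0.22 to -0.19). Its squared coefficient of variation beyond counting noise was the highest of the 8, at 1.25 across thinned panobinostat cells and 1.22 across vehicle cells, against at most 0.31 and 0.67 for the other 7. Its variance over mean, which grows with the level, was 23.5 with panobinostat and 26.4 with vehicle, where 1 is the value of pure counting noise. The 10% of cells with the most Ankrd1 UMIs held 34.8% of them with panobinostat and 35.6% with vehicle. Cells ranged from 0 to 212 UMIs with panobinostat and from 0 to 261 with vehicle, with medians of 11 and 14. A UMI was seen in 76.2% of thinned panobinostat cells (74.4 to 77.9) and 86.5% of vehicle cells (85.1 to 87.8), against 79.7% and 88.6% unthinned.

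Amotl2, on chromosome 9 from 102716672 to 102733418 (plus strand), encodes an angiomotin-like protein that binds Yap and holds it back, and is itself a target. It stood at 154.1 CPM with panobinostat (151.7 to 156.5) and 116.3 CPM with vehicle (114.1 to 118.6), a log2 ratio of 0.41 (0.37 to 0.44). A UMI was seen in 87.3% of thinned panobinostat cells (85.9 to 88.7) and 78.3% of vehicle cells (76.6 to 80.0), against 95.2% and 83.3% unthinned. The related Amotl1 and Amot lay on the other side of equality, at log2 ratios of -0.64 and -0.74, both under 2-fold.

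Axl, on chromosome 7 from 25757273 to 25788705 (minus strand), encodes a receptor tyrosine kinase of the TAM family. It stood at 185.0 CPM with panobinostat (182.4 to 187.6) and 179.5 CPM with vehicle (176.7 to 182.2), a log2 ratio of 0.04 (0.01 to 0.07) whose sign turned with TMM factors (-0.07) and DESeq2 size factors (-0.08). The Axl ligand Gas6 was called higher, at 71.9 CPM with panobinostat and 9.86 CPM with vehicle, a log2 ratio of 2.87 (2.77 to 2.97), and passed 10 CPM through the panobinostat library alone. The ligand Pros1 had a log2 ratio of 0.84, and the other receptors Tyro3 and Mertk stayed under 10 CPM in both libraries. The receptor thus stood level between libraries where its ligand Gas6 was 7.29-fold higher.

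**Figure D2:**
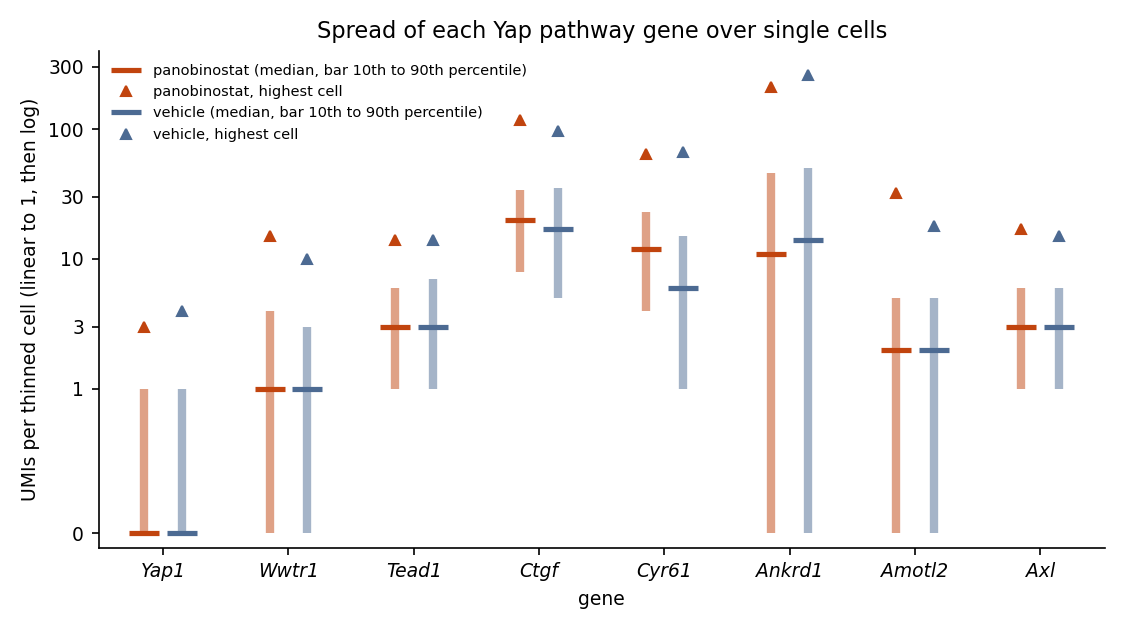
UMIs of each gene per cell, every cell thinned to 18663 UMIs, for panobinostat (left of each gene) and vehicle (right). The dash is the median over cells, the bar runs from the 10th to the 90th percentile and the triangle is the highest cell, on an axis that is linear up to 1 and logarithmic above it. The bar of Cyr61 runs from 4 to 23 UMIs with panobinostat and from 1 to 15 with vehicle, and that of Ankrd1 starts at 0 in both.

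The kinases and upstream regulators of the pathway mostly stayed under 2-fold, as most genes did. Of 18 such genes past 10 CPM, 1 was called higher and 0 lower, against 9.85% and 11.0% of all genes. Their log2 ratios had a median of -0.04, against -0.07 over all genes. The gene called higher was the kinase Tnik (11.9 CPM with panobinostat and 5.43 CPM with vehicle, log2 ratio 1.13), which passed 10 CPM only with panobinostat. That call ended over cells called G1. Lats1, which phosphorylates Yap, had a log2 ratio of -0.78 (15.1 and 25.9 CPM), Taok3 one of 0.63 and Nf2, the upstream tumour suppressor merlin, one of 0.52. Lats2, itself a target, stood at 53.9 and 58.7 CPM.

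Among 16 binding partners and regulators, 0 were called higher and 1 lower, Tead2, against 9.85% and 11.0% of all genes. The median was -0.39 on the log2 scale. The LIM protein Ajuba had a log2 ratio of -0.90, the Tead cofactor Vgll3 one of -0.84 and the angiomotin Amot one of -0.74, all under 2-fold. With TMM factors 3 of the 16 were called lower, and likewise with DESeq2 size factors and over cells called G1.

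Of 18 further Yap and Taz target genes past 10 CPM, 3 were called higher and 2 lower, against 9.85% and 11.0% of all genes. The median log2 ratio was -0.07, equal to that of all genes. The growth factor Areg was higher, at 94.6 CPM with panobinostat and 24.5 CPM with vehicle (log2 ratio 1.95). The matrix gene Ccdc80 (1.70) and the kinase Nuak2 (1.39) were higher too. The mitotic gene Birc5 (-5.00) and the cyclin Ccnd1 (-1.67) were lower, and both serve the cell cycle. Of the S phase genes 35 of 41 were called lower, and of the G2/M genes 47 of 51, against 11.0% of all genes. Birc5 is also 1 of the G2/M genes by which phases were called. Over cells called G1, 2 of the further targets were called higher and 2 lower. The part of the cell cycle in the ratios of Birc5 and Ccnd1 was not tested. The tissue factor gene F3 stood at 605.9 and 409.7 CPM, under 2-fold. As a group, then, the further targets did not shift in 1 direction.

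The contractile and Srf target genes were mostly lower with panobinostat. Of 16, 12 were called lower and 0 higher, against 11.0% and 9.85% of all genes. Their median was -1.43 on the log2 scale, against -0.07 over all genes. Acta2, smooth muscle actin, had a log2 ratio of -5.74, Tagln one of -3.73, Myl9 one of -3.12, Flna one of -1.69 and Tpm4 one of -1.56. Ctgf and Cyr61 are known to be induced through Srf as well as Yap in other cells, and they stood at 0.14 and 0.82. In the TGF-beta list, whose signal also induces Ctgf, 0 of 11 were called higher and 1 lower, against 9.85% and 11.0% of all genes. The gene called lower was the latent TGF-beta binding protein Ltbp2 (1.07 and 11.1 CPM, log2 ratio -3.37), and the list median was -0.28. With TMM factors 2 of the 11 were called lower, and with DESeq2 size factors 3. The part of Srf or of TGF-beta signals in the levels of Ctgf and Cyr61 was not tested.

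**Figure D3:**
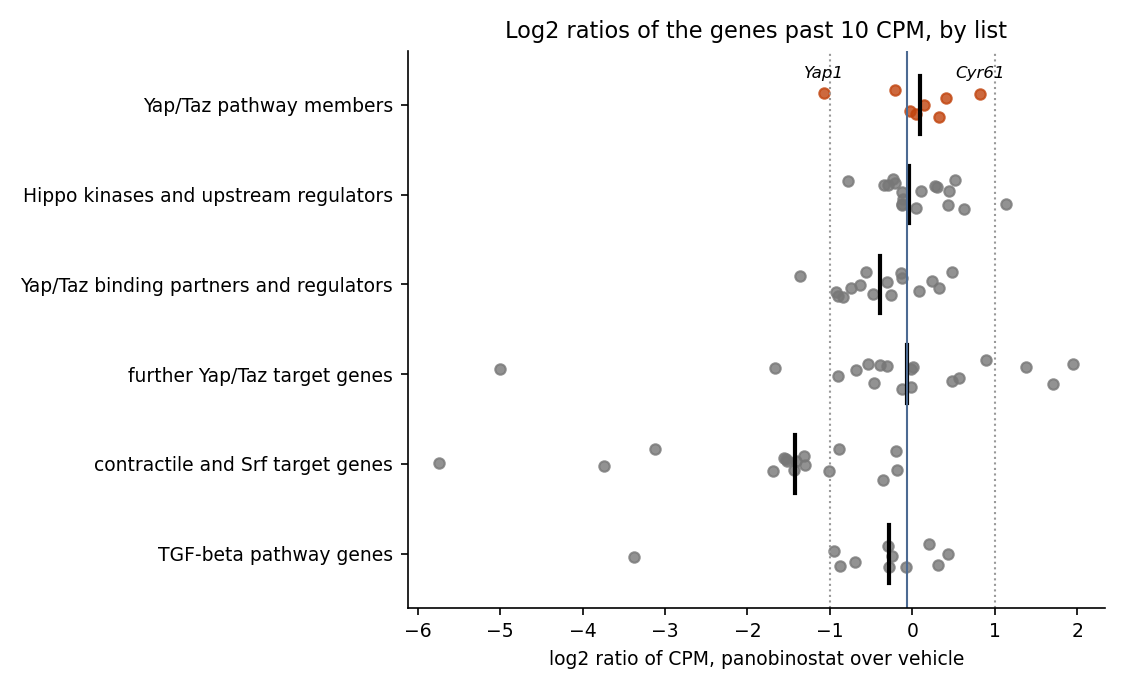
Log2 ratio of CPM, panobinostat over vehicle, of each gene past 10 CPM (points), by list, with the list median (black bar). The solid line is the median over all genes, -0.07, and dotted lines mark 2-fold. The 8 genes in the top row lie between -1.07 (Yap1) and 0.82 (Cyr61), while the contractile genes have a median of -1.43.

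The 8 genes were also read by cell cycle stage in the vehicle cells. Cyr61, Ankrd1, Ctgf, Amotl2 and Axl were lower in cells called G2/M than in those called G1, with separate intervals, and Yap1 had overlapping ones. Yap1 stood at 27.5 CPM in vehicle cells called G1, 28.7 CPM in those called S and 28.3 CPM in those called G2/M. Cyr61 stood at 401.5 CPM in G1, 404.8 CPM in S and 336.3 CPM in G2/M, and Ankrd1 at 1204, 1158 and 1010 CPM. Amotl2 stood at 131.7, 110.1 and 106.9 CPM, Ctgf at 1060, 962.2 and 945.1 CPM, and Axl at 184.9, 182.9 and 172.4 CPM. Set against vehicle cells called G1 alone, panobinostat cells called G1 kept Yap1 as the 1 gene called, at 13.4 and 27.5 CPM (log2 ratio -1.04), and Amotl2 had its smallest log2 ratio of any setting (0.23). Set against vehicle cells called S or G2/M, all panobinostat cells had a log2 ratio of 0.51 for Amotl2, its largest, and of 0.20 for Ctgf, which had 0.05 in the G1 cells. The part of the cell cycle in the ratios of treatment was not tested. Panobinostat cells could not be compared by stage because only 3 were called S or G2/M.

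Across single cells the targets Ctgf, Cyr61, Ankrd1 and Amotl2 varied together to differing degrees. Over 2221 thinned panobinostat cells and 2401 thinned vehicle cells, Ctgf and Cyr61 had a Pearson r of 0.40 and 0.40, the highest of the 28 pairs in each library. Ctgf with Ankrd1 had r of 0.24 and 0.33, Ctgf with Amotl2 0.20 and 0.29, and Cyr61 with Ankrd1 0.22 and 0.26. Ankrd1 with Amotl2 was lower, at 0.10 and 0.18. Tead1 went with Ctgf at 0.20 and 0.14. The highest r of Yap1 with another of the 8 genes was 0.07 with panobinostat and 0.08 with vehicle, and that of Wwtr1 was 0.10 and 0.06. Axl, although a target, had r of -0.01 and -0.01 with Ctgf and of -0.03 and 0.02 with Cyr61. With 0.246 and 0.519 UMIs per cell, Yap1 is too sparse for such values to be read. The cells of a library share their culture and were all brought to 1 depth, and these values are descriptions with no test.

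**Figure D4:**
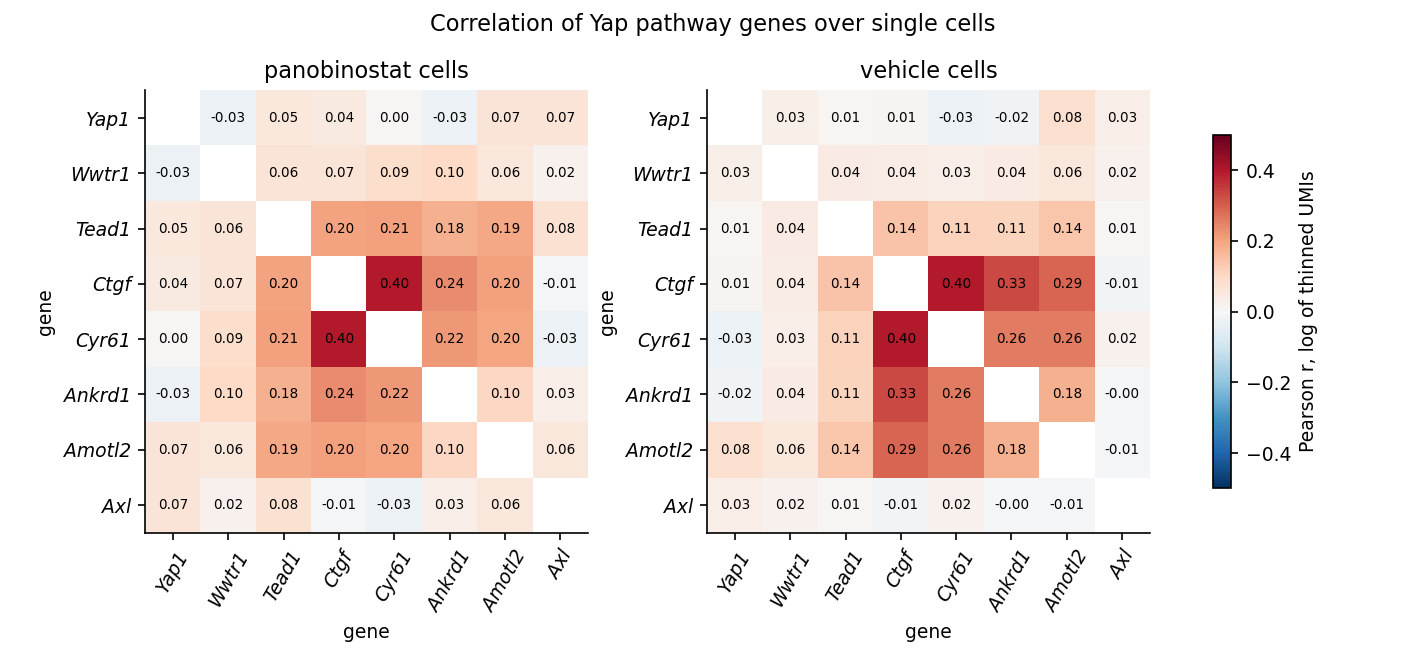
Pearson r between the 8 genes over thinned cells (log of UMIs plus 1), in 2221 panobinostat cells (left) and 2401 vehicle cells (right). The darkest square off the diagonal is Ctgf with Cyr61, 0.40 in both, and the rows of Yap1, Wwtr1 and Axl are pale.

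The genes most like each member were picked in the vehicle cells, out of 3195 genes with at least 50 CPM there, and then read in the panobinostat cells. For Cyr61 they were F3 (r of 0.35 with panobinostat and 0.44 with vehicle), the kinase Plk2 (0.27 and 0.38) and the transcription factor Klf6 (0.27 and 0.37). For Ctgf they were Klf6 (0.31 and 0.38), the actin-binding caldesmon Cald1 (0.40 and 0.38) and the integrin Itgb1 (0.37 and 0.37), and Cald1 and Itgb1 also ranked first and second in panobinostat cells. For Ankrd1 they were Proser2 (0.26 and 0.34), the basement membrane collagen Col4a1 (0.32 and 0.33) and Cald1 (0.28 and 0.32), and Col4a1 ranked first with panobinostat. For Amotl2 they were the matricellular thrombospondin Thbs1 (0.29 and 0.26), the activin antagonist Fst (0.14 and 0.23) and Plk2 (0.12 and 0.22). For Axl they included Phldb2 (0.14 and 0.26) and Clu (0.11 and 0.22). Tead1 had Rock2 (0.18 and 0.21), Actn4 (0.06 and 0.21) and Cald1 (0.36 and 0.19). The closest genes of Wwtr1 (Sh3glb1, Gclc and Col4a1) and of Yap1 (Aplp2, Rest and Jag1) reached at most 0.13 and 0.08 in vehicle cells, too weak to read in counts this sparse.

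Among the cells deep enough to be thinned, the targets were higher in those with more contractile transcripts in each library, although between libraries the contractile genes were lower and most targets were not. Thinned cells were ranked by the mean log UMIs of the 16 contractile genes, none of which is a member, and split into 4 equal bins. Cyr61 stood at 763.8 CPM in the top bin and 533.7 CPM in the bottom bin of panobinostat cells, and at 512.7 and 253.3 CPM in vehicle cells, log2 ratios of 0.52 and 1.02. Ankrd1 stood at 1144 and 637.1 CPM with panobinostat and at 1631 and 719.1 CPM with vehicle (0.84 and 1.18). Ctgf had log2 ratios of 0.41 and 0.67, Tead1 of 0.67 and 0.33, Amotl2 of 0.59 and 0.28 and Axl of 0.26 and 0.30. Yap1 had log2 ratios of 0.12 (-0.23 to 0.47) and -0.12 (-0.35 to 0.11), intervals that take in equality and, with panobinostat, also the values of Ctgf and Axl. Wwtr1 had 0.21 (0.08 to 0.34) with panobinostat and -0.10 (-0.24 to 0.04) with vehicle.

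The bins leave out most of the cells with the highest Acta2 level in the vehicle library, vehicle cluster 6 described below, since only 27 of its 107 cells were deep enough. That cluster had 3304 CPM of Acta2 and the lowest Cyr61, Amotl2, Ctgf and Axl of the vehicle clusters, opposite to the order of the bins. The bins also differed in other ways. The median UMI total before thinning was 46969 in the top bin and 37886 in the bottom bin with panobinostat, and 33652 and 28876 with vehicle. Cells called S or G2/M made up 54.2% of the top bin and 64.7% of the bottom bin in vehicle cells. The part of depth and cell cycle in these ratios was not tested. Acta2 stood at 32.2 CPM in the top bin of panobinostat cells and at 34.8 CPM in the bottom bin of vehicle cells, so the ranks do not match between libraries. Cyr61 was higher in the panobinostat cells of each bin than in the vehicle cells of the same bin, and Yap1 was lower in each.

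**Figure D5:**
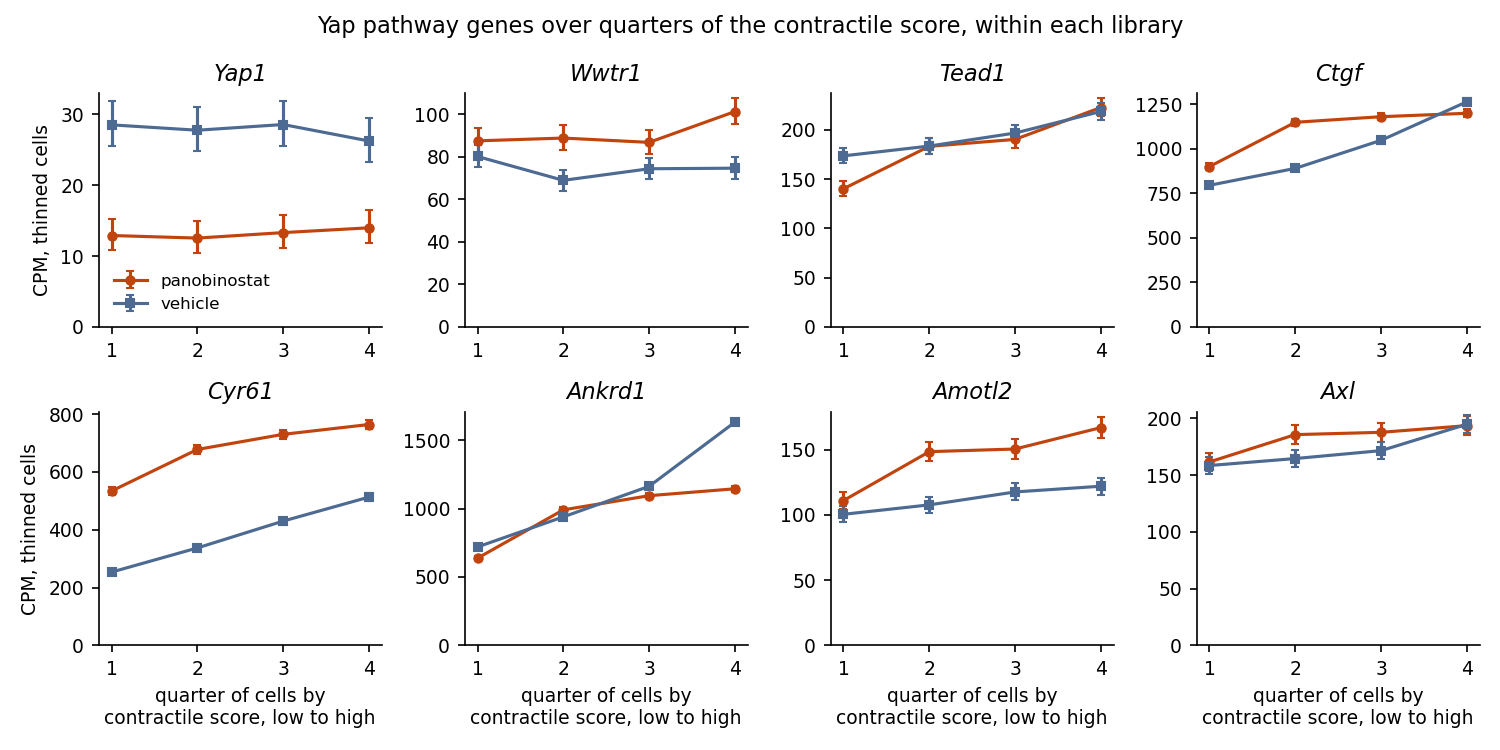
CPM of each gene in 4 equal bins of thinned cells ranked by contractile transcripts from low (1) to high (4), with panobinostat (circles) and vehicle (squares), each axis starting at 0 and error bars giving 95% Poisson intervals. Ankrd1 runs up to 1144 CPM with panobinostat and 1631 CPM with vehicle in bin 4, while Yap1 is at or above 12.6 CPM in each panobinostat bin and at or above 26.3 CPM in each vehicle bin.

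Cells were also clustered within each library without the 8 genes or any gene of the lists, and the clusters are numbered by size. Clusters are described by their leading genes and carry no cell type name. In the panobinostat library Ankrd1 ranged over 12.2-fold among the 6 clusters of at least 50 cells, from 169.8 CPM in cluster 6 (64 cells, led by Pltp, Evpl, Dcxr and Gal) to 2078 CPM in cluster 4 (156 cells, led by Tagln, Uts2b, Sparc, Col4a1 and Col4a2). With finer clusters that range was 5.10-fold. In the vehicle library Ankrd1 was highest in cluster 3 (506 cells, led by Vim, Col4a1, Xirp2, Col4a2 and Bst1) at 2293 CPM. Ctgf, Wwtr1 and Tead1 were highest in the same clusters as Ankrd1, at 1316, 145.4 and 290.3 CPM in panobinostat cluster 4 and at 1338, 97.9 and 216.4 CPM in vehicle cluster 3. Col4a1, the basement membrane collagen found above among the genes most like Ankrd1, was thus a leading gene of the Ankrd1-high clusters in both libraries.

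Axl was distributed otherwise. It was highest in panobinostat cluster 2 (656 cells, led by Kitl, Gata3, Pmp22, Clu and Ptges), at 225.8 CPM, and in vehicle cluster 5 (442 cells, led by Clu, Ltc4s, Ctla2a, Spink8 and Cdkn1c), at 240.8 CPM. In those clusters Ctgf stood at 748.4 and 725.0 CPM and Ankrd1 at 535.5 and 671.0 CPM, below their library levels. Yap1 ranged from 9.08 to 16.9 CPM among panobinostat clusters and from 27.7 to 29.1 CPM among the 5 largest vehicle clusters, so each of these 5 stood above each panobinostat cluster of at least 50 cells.

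Vehicle cluster 6, 107 cells led by Cnn1, Myl9, Acta1, Acta2 and Tagln, stood apart. It held 28.8 CPM of Cyr61, 12.7 CPM of Amotl2, 180.1 CPM of Ctgf, 80.6 CPM of Axl, 92.1 CPM of Tead1 and 19.0 CPM of Yap1, the lowest value of each among vehicle clusters. Ankrd1 (890.3 CPM) and Wwtr1 (66.8 CPM) were within the range of the others. Its cells had a median of 14459 UMIs, a median mitochondrial share of 2.43% and 1504 CPM of the nuclear RNA Malat1, where the other vehicle clusters had 4511 CPM or more of Malat1. The part of RNA quality in these low levels was not tested. A group of 9 panobinostat cells, led by Acta2, Acta1, Lce1g, Tpm2 and Cnn1, had a median mitochondrial share of 0.0382% and 70.3 CPM of Malat1. With both groups left out, an alternative chosen after the data were seen, Yap1 had a log2 ratio of -1.08 and Cyr61 one of 0.80. The range among vehicle clusters without cluster 6 was 1.32-fold in place of 15.1-fold for Cyr61, 1.78-fold in place of 11.4-fold for Amotl2 and 2.34-fold in place of 7.43-fold for Ctgf. It was also smaller for Tead1 (1.27-fold in place of 2.35-fold) and Axl (1.70-fold in place of 2.99-fold). For Yap1 it was 1.05-fold in place of 1.53-fold, with overlapping intervals as given above.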

How the data were processed

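Per the labels' protocols, 10x Chromium 3′ libraries were sequenced on a NextSeq500. Cell Ranger 3.0.1 and mm10 were used, per the submitters' processing notes. Which gene models were counted is not stated in those notes. Raw UMI counts of 5135 cells were deposited, not normalized by the authors, and the mark ending each barcode (CTRL or PANO) was read as the library. No 16-base barcode was shared by the libraries (0 in both). All deposited cells were used. The cell with fewest genes had 1798 and the highest mitochondrial share was 9.98%, so filtering had taken place before deposit by rules not stated.

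Counts were summed per library and scaled to CPM. The log2 ratio is panobinostat over vehicle, and its 95% interval is the exact conditional binomial one. A call asked for a ratio past 2-fold, an interval without equality and 10 CPM in 1 library or more, and it is a rule of size, with no p-value, since cells are not replicates. A gene low in 1 library passes the 10 CPM floor only through the other. Intervals of shares are Clopper-Pearson ones. Cell cycle phases were scored from S and G2/M gene lists with scanpy 1.11.5. Clusters used 2000 variable genes, 30 components, 15 neighbours and leidenalg 0.10.2 at resolution 0.5. Scrublet called 14 cells doublets (0.273%), too few to trust, so doublets may remain. Gene coordinates are GENCODE M21, and start-site sequences are RefSeq, both GRCm38; Ctgf and Cyr61 are listed there as Ccn2 and Ccn1. Alternatives were TMM (edgeR 4.0.16) and DESeq2 1.42.0 size factors, median centring, other floors and folds, and other choices of cells. The comparison was tested on simulated counts that held counting noise alone. Changes were set only in genes at 50 CPM or more, a level that Yap1 does not reach.

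The members, the lists and the alternatives were chosen with earlier results of these data known, and leaving out the 2 small clusters was added after these data were seen. All members are named. From each list up to 5 genes with the largest absolute log2 ratio are named, and up to 5 leading genes per cluster. For each member the 3 most correlated genes in vehicle cells are named. Other genes (Amotl1, Tead3, Tead4, Lats2, F3, Nov, Malat1, the markers) are named for their role or after their values were seen. Some genes and 1 list under these rules are not reported here. Wisp3 has no row in the matrix used here.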

Additional observations from a re-analysis of the deposited data

How the results depend on the processing

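Under 11 alternatives for each of the 8 genes, every log2 ratio kept its call, with Yap1 as the 1 gene past 2-fold. Yap1 ran from -1.20 (DESeq2 size factors) to -1.01 (centred on the median gene), Cyr61 from 0.70 to 0.94, Wwtr1 from 0.20 to 0.39, Amotl2 from 0.23 to 0.51, Ctgf from 0.02 to 0.24 and Ankrd1 from -0.33 to -0.04. Tead1 (-0.16 to 0.04) and Axl (-0.08 to 0.12) changed sign and have no direction. The count of genes called lower was 0 of 7 with a floor of 50 CPM, which Yap1 does not reach, and 0 with a 3-fold rule. With a 1.5-fold rule 1 gene, Cyr61, was called higher. Over all genes these rules called 369 of 3657 lower at 50 CPM, 393 of 8872 lower at 3-fold and 1708 of 8872 higher at 1.5-fold, so the counts among the 8 genes show nothing particular to them. The median log2 ratio of all genes was -0.19 with TMM and -0.20 with DESeq2 size factors, against -0.07, and that of the 8 genes was -0.02 and -0.03, against 0.09. Calls over all genes were 874 higher and 973 lower, against 740 and 1232 with TMM and 731 and 1249 with DESeq2 size factors. The balance turned to more higher than lower calls with median centring (967 and 870), in the G1 cells alone (781 and 617), at a floor of 1 CPM (2344 and 1448) and with no floor (4179 and 1870). The contractile list had 11 to 13 genes called lower in the settings tried, which were compared by count alone. With 2 bins in place of 4 of the contractile ranking, Cyr61 had 0.30 with panobinostat and 0.68 with vehicle. The median r over the 28 pairs was 0.07 and 0.04, against 0.13 and 0.08 without thinning. No paired analysis was possible because each treatment has 1 library. Leaving out a replicate was not possible for the same reason. The interval of each ratio is narrow because counts are deep, and it leaves out variation between cultures, mice and libraries.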
